A study of Homo sapiens with 9 samples.

Results

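The 4 CDC2-like kinases, CLK1 to CLK4, and 4 further genes, RSRP1, WSB1, PILRB and MTG1, were followed in ACHN cells, a human renal cell carcinoma line, treated with piericidin A. These 8 genes were found by symbol among the 18859 genes of the authors' filtered log2 FPKM table. The CLK kinases were taken as a whole family, whereas RSRP1, WSB1, PILRB and MTG1 were picked because they rose at 50 nM. The values of those 4 genes are therefore a description, with no test in any of the 3 comparisons, which all share libraries with that choice. Earlier results of these data were also known when the CLK family was chosen, and its p-values and counts do not allow for that. The groups were 3 libraries in 0.1% DMSO, 3 at 25 nM piericidin A and 3 at 50 nM piericidin A, all adherent ACHN cells in MEM, and the labels do not say whether the piericidin A cultures also held DMSO. Piericidin A is an inhibitor of respiratory complex I, and the series was made to explore how it acts on renal cell carcinoma. Cells were grown in 6-well plates, and nothing in the labels tells if the libraries of 1 group came from separate cultures, so p-values measure the spread between these samples, which may be technical.

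CLK kinases phosphorylate the serine- and arginine-rich SR proteins that bind exons and guide the spliceosome, and they release these proteins from nuclear speckles. In human and mouse cells, CLK1 and CLK4 transcripts are known to exist partly as nuclear RNA that keeps the introns on each side of exon 4, or as messenger RNA that skips exon 4, and splicing of these forms responds to heat and to CLK activity. RSRP1 encodes a protein rich in arginine and serine. WSB1 is the substrate receptor of a ubiquitin ligase, PILRB is an activating receptor of the paired immunoglobulin-like type 2 family, and MTG1 is a GTPase that acts in assembly of the mitochondrial ribosome.

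Deposited values are FPKM, fragment counts scaled to gene length and library size, for a whole gene. Fragments from exons and from introns cannot be told apart in them, so intron retention was not measured. What could be read is how much of each gene's length the annotation gives to retained introns. The authors' gene length was equal to the length of all annotated exons merged, transcripts of the retained-intron class included, in GENCODE 29 for 16924 of 18709 matched genes (90.5%) and for 8 of 8 genes described here. GENCODE 29 and the authors' table both use the GRCh38 (hg38) build, and the positions of the 8 genes were identical.

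The introns that annotated CLK1 and CLK4 transcripts retain on each side of exon 4 are shown by their splice sites, 10 exon bases and 20 intron bases each, since they are the retained introns best known in this family. Capitals mark the first and last 2 bases of each intron. Sequences are those of GENCODE 29 transcripts on the minus strand, in the windows chr2:200861218-200861247, chr2:200860206-200860235, chr2:200860105-200860134 and chr2:200859737-200859766 for CLK1, and chr5:178618536-178618565, chr5:178617425-178617454, chr5:178617324-178617353 and chr5:178616939-178616968 for CLK4.
CLK1 intron 3, 5′ site: ttcacatgggGTatgaacgtttttaaaaca
CLK4 intron 3, 5′ site: gtcacgttcgGTatgattggttttgttttc
CLK1 intron 3, 3′ site: cgcccacttgacgtttccAGaagagtcacc
CLK4 intron 3, 3′ site: ctgcccacttgccgttccAGaagagccacc
CLK1 intron 4, 5′ site: agtgcaagatGTatagaatatttttcaaca
CLK4 intron 4, 5′ site: agagcaagatGTatagaatatttttcaaca
CLK1 intron 4, 3′ site: gatttatttctctcttttAGatgaaattgt
CLK4 intron 4, 3′ site: tttttccctcctcactctAGatgaaatcgt
Intron 3 is 1022 bases long in CLK1 and 1121 in CLK4, and intron 4 is 378 and 395 bases.

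Exon 4, which lies between these introns at chr2:200860125-200860215 in CLK1 and chr5:178617344-178617434 in CLK4, is shown to compare the 2 paralogs. Capitals mark the positions at which they differ.
CLK1 exon 4: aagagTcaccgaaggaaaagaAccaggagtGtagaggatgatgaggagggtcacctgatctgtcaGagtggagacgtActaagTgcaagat
CLK4 exon 4: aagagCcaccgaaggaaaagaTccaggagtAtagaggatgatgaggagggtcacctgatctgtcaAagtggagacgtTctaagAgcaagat
Both copies are 91 bases long and were identical at 85 positions (93.4%). Of 8 annotated retained-intron transcripts of CLK1 and 7 of CLK4, 1 or 2 cover each of introns 3 and 4.

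Recovered whole fragments numbered 24365472 to 29245674 per library. Of the 9 libraries, 25 nM replicate 3 had the highest sum of FPKM, 310119, against 278870 and 281540 in the other 25 nM libraries. Sums were 249274 to 255396 in DMSO and 276520 to 293816 at 50 nM, so all piericidin A libraries lay above DMSO. Genes above 0 numbered 23641 to 24222 in DMSO, 23947 to 24653 at 25 nM and 25482 to 26388 at 50 nM. Renal epithelial markers were present in every library, with PAX8 at 66.0 to 93.5 FPKM and KRT8 at 101 to 144 FPKM. LHX1, another renal marker, was low, at 1.32 to 2.75 FPKM. The endothelial marker PECAM1 was at 0 to 0.0199 FPKM. The fibroblast markers COL1A1, at 1.65 to 3.21 FPKM, and PDGFRB, at 0.309 to 0.756 FPKM, were low but detected.

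In the comparison of 25 nM with DMSO, CLK1, CLK2 and CLK3 rose by a modest amount and CLK4 did not pass the test. At 50 nM all 4 CLK kinases were higher than in DMSO, and CLK2 showed the largest rise of the 4. The added level of the 4 kinases was 27.9 ± 0.991 FPKM in DMSO, 36.4 ± 2.02 FPKM at 25 nM and 52.9 ± 2.96 FPKM at 50 nM (SD, n = 3 each). The 3 groups did not overlap in this sum. Each of the 3 pairs of groups gave the smallest two-sided p that an exact permutation test over 20 splits allows, p = 0.1. Changes called below passed an adjusted p of 0.05 in limma's moderated test on log2(FPKM + 0.1), adjusted over 15541 genes. In these bulk samples, fewer cells of a type and less RNA per cell cannot be told apart.

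**Figure D1:**
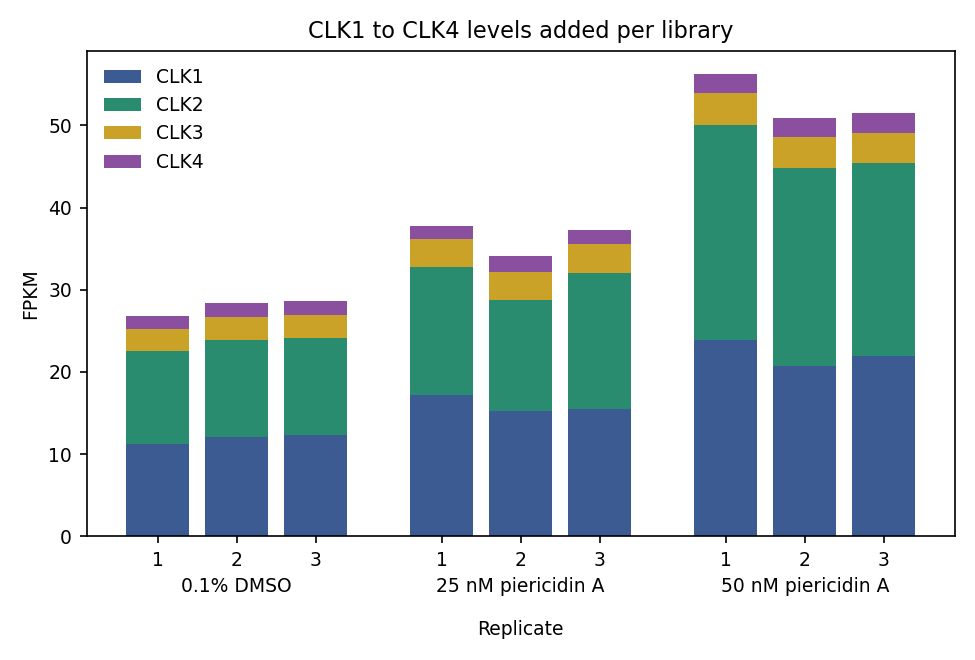
Deposited FPKM of CLK1 to CLK4 stacked for each of the 9 libraries, grouped by treatment from 0.1% DMSO to 50 nM piericidin A. The sums run from 26.8 to 28.7 FPKM in DMSO, 34.1 to 37.8 at 25 nM and 50.8 to 56.3 at 50 nM.

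CLK1, which phosphorylates SR proteins such as SRSF1, lies at chr2:200853009-200864744 (ENSG00000013441, minus strand). It had 11.2, 12.1 and 12.3 FPKM in the DMSO libraries, 17.2, 15.2 and 15.5 FPKM at 25 nM and 23.9, 20.7 and 21.9 FPKM at 50 nM. The libraries rose in steps with dose, and no groups overlapped. Within its span lies a Y_RNA gene with 0 exon bases in common, at 4.595 FPKM at 50 nM and 1.88 FPKM in DMSO. The log2 fold change of CLK1 fold change was 0.43 (SE 0.07) at 25 nM against DMSO, with an adjusted p of 7.1e-04 in limma. It was 0.89 (SE 0.07) at 50 nM against DMSO, with an adjusted p of 6.27e-06 in limma. Between the doses, 50 nM was higher than 25 nM by 0.47 on the log2 scale (SE 0.07, limma adjusted p = 0.00118). Of all tested genes, 13.5% had a larger log2 fold change at 50 nM against DMSO than CLK1 did.

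CLK2, a family member that also acts in insulin and cell cycle signalling, lies at chr1:155262868-155278491 (ENSG00000176444, minus strand). It had 11.3, 11.7 and 11.9 FPKM in the DMSO libraries, 15.6, 13.5 and 16.5 FPKM at 25 nM and 26.1, 24.1 and 23.5 FPKM at 50 nM. The 3 groups were separate, with the widest gap between 25 nM and 50 nM. Its log2 fold change was 0.38 (SE 0.07) at 25 nM against DMSO, with an adjusted p of 0.00201 in limma, and 1.07 (SE 0.07) at 50 nM against DMSO, with an adjusted p of 3.96e-06. The step between 25 nM and 50 nM was 0.69 (SE 0.07, limma adjusted p = 3.75e-04). In the annotation, HCN3 on the other strand overlaps the 5′ end of CLK2 by 909 bases of gene span, with 0 exon bases in common. HCN3, a pacemaker channel gene, had 4.07 FPKM in DMSO, 7.33 FPKM at 25 nM and 8.66 FPKM at 50 nM as group means. The strandedness of the libraries was not given in the sources used here, and the part of HCN3 in the CLK2 values was not tested.

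CLK3, at chr15:74598500-74645414 (ENSG00000179335, plus strand), had 2.74, 2.80 and 2.85 FPKM in the DMSO libraries, 3.37, 3.36 and 3.52 FPKM at 25 nM and 3.88, 3.84 and 3.62 FPKM at 50 nM. The 3 groups were separate, although the 2 doses lay close together. Its log2 fold change was 0.28 (SE 0.05) at 25 nM against DMSO, with an adjusted p of 0.00201 in limma, and 0.42 (SE 0.05) at 50 nM against DMSO, with an adjusted p of 1.29e-04. Between 50 nM and 25 nM the difference was 0.14 (SE 0.05) and did not pass the test, with an adjusted p of 0.0643 in limma. It passed with fragment-total scaling of the libraries (0.24, limma adjusted p = 0.0121) and without replicate 3 of 25 nM (0.16, limma adjusted p = 0.0436). The mRNA-decapping factor gene EDC3, on the other strand, shares 701 of the 20443 exon bases of CLK3 and averaged 4.04 FPKM at 50 nM and 4.77 FPKM in DMSO.

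CLK4, the closest paralog of CLK1, lies at chr5:178602664-178630615 (ENSG00000113240, minus strand). It had 1.55, 1.72 and 1.69 FPKM in the DMSO libraries, 1.64, 1.90 and 1.65 FPKM at 25 nM and 2.38, 2.20 and 2.46 FPKM at 50 nM. The 25 nM and DMSO libraries overlapped, whereas the 50 nM libraries stood above both. Its log2 fold change at 25 nM against DMSO was 0.06 (SE 0.08, limma adjusted p = 0.549), and the value was -0.0015 without replicate 2 of 25 nM. At 50 nM against DMSO it was 0.48 (SE 0.08, limma adjusted p = 9.79e-04). At 50 nM against 25 nM it was 0.42 (SE 0.08, limma adjusted p = 0.00578). RN7SKP70, a small pseudogene on the same strand, shares 161 exon bases with CLK4 and averaged 0.235 FPKM at 50 nM and 0.0454 FPKM in DMSO.

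At 25 nM against DMSO, 3 of the 4 CLK kinases were called higher, where 26.3% of all tested genes were. At 50 nM against DMSO, 4 of 4 were called higher, where 29.2% of all tested genes were. At 50 nM against 25 nM, 3 of 4 were called higher, where 14.7% were. CLK1 and CLK2 were called higher in all 3 comparisons, as 5.12% of tested genes were, and no CLK kinase was called lower, where 25.8%, 31.5% and 18.8% were in these comparisons. Over all tested genes, 4540 were called higher and 4901 lower at 50 nM against DMSO, a split of 5312 and 4108 with fragment-total scaling and 5219 and 4197 with upper-quartile scaling. At 50 nM against 25 nM, 2288 were called higher and 2917 lower, against 3157 and 1358 with fragment-total scaling, 2620 and 2210 with upper-quartile scaling, and 1469 and 1972 without replicate 1 of 50 nM. At 25 nM against DMSO, 4084 were called higher and 4002 lower, 3804 and 4264 with fragment-total scaling, and 4456 and 3712 with upper-quartile scaling. The median log2 fold change of the 4 kinases was 0.33 at 25 nM against DMSO, 0.69 at 50 nM against DMSO and 0.44 between the doses, beside 0.02, 0.00 and -0.01 over all tested genes. Counted over all 8 genes, the groups did not overlap, with the higher dose above, in 6 genes at 25 nM against DMSO, where 31.5% of tested genes did so. That held for 8 of 8 genes at 50 nM against DMSO, where 33.9% did so, and for 8 of 8 between the doses, where 21.0% did so. The choice of 4 of these genes used libraries of each of these comparisons, and nothing is read from those counts.

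**Figure D2:**
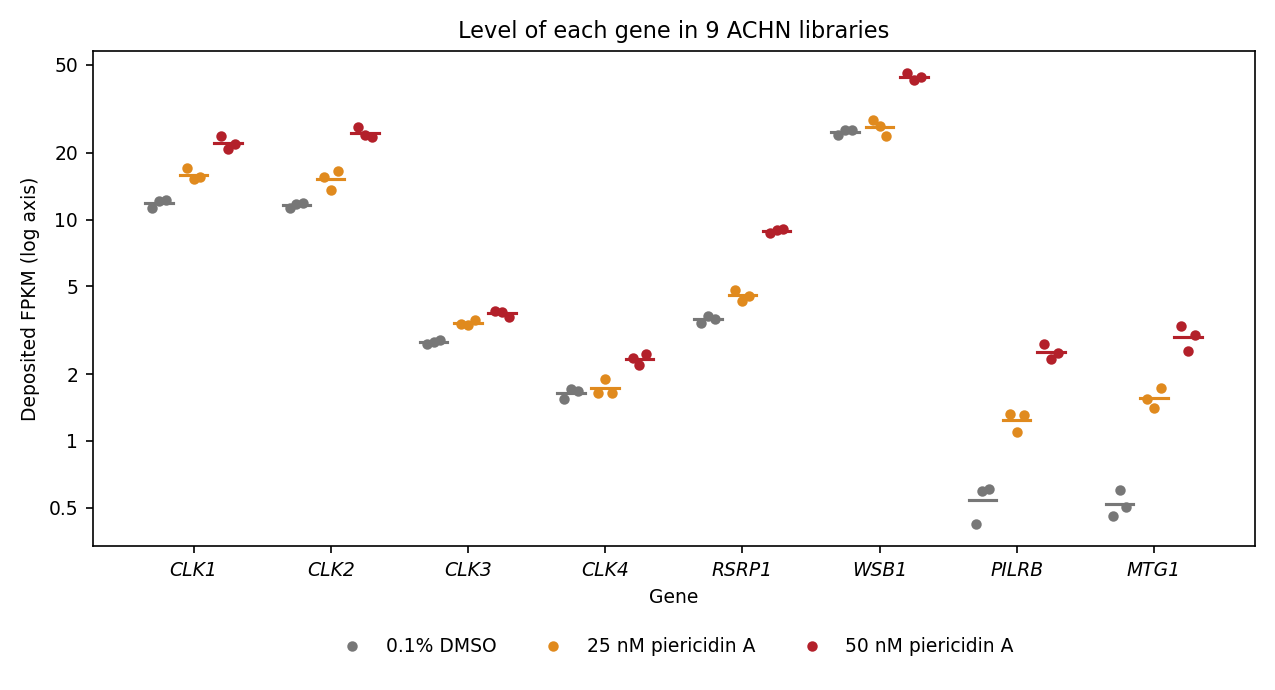
Deposited FPKM on a log axis of the 8 genes in each library, as points with a bar at the mean of the 3 libraries, in the order DMSO, 25 nM and 50 nM. WSB1 and CLK4 at 25 nM overlap DMSO, and all 8 genes stand highest at 50 nM.

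CLK2 held a larger share of the family at 50 nM than in DMSO, and CLK3 and CLK4 smaller shares, without overlap of the libraries, though no share passed the test. CLK2 held 46.5 ± 0.816% of the added FPKM of the 4 kinases at 50 nM and 41.6 ± 0.412% in DMSO (SD, n = 3 each; exact permutation p = 0.1, 0.171 adjusted over 12 tests). CLK3 held 7.16 ± 0.348% at 50 nM and 10.01 ± 0.200% in DMSO (SD, n = 3 each; exact permutation p = 0.1, 0.171 adjusted). CLK4 held 4.44 ± 0.290% at 50 nM and 5.90 ± 0.139% in DMSO (SD, n = 3 each; exact permutation p = 0.1, 0.171 adjusted). No p under 0.1 is possible with 3 libraries against 3. CLK1 held 41.9 ± 0.981% at 50 nM and 42.5 ± 0.499% in DMSO (SD, n = 3 each; exact permutation p = 0.5). The difference of CLK3 was larger, 25.7% at 50 nM and 32.8% in DMSO, when shares were taken of fragments. The CLK1 share turned the other way, to 38.1% at 50 nM and 35.2% in DMSO, with fragments, which weight the long CLK3 more. The ratio of CLK1 to CLK4 FPKM was 8.91 to 10.1 at 50 nM, 8.01 to 10.5 at 25 nM and 7.05 to 7.28 in DMSO.

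Among the 4 genes picked for rises, RSRP1 and WSB1 each had a larger log2 step between 25 nM and 50 nM than between DMSO and 25 nM, while PILRB and MTG1 already stood at over 2 times their DMSO level at 25 nM. RSRP1, at chr1:25242237-25338213 (ENSG00000117616, minus strand), had 3.41, 3.67 and 3.54 FPKM in the DMSO libraries, 4.81, 4.299 and 4.53 FPKM at 25 nM and 8.70, 8.97 and 9.04 FPKM at 50 nM. The 3 groups were separate. Its log2 fold changes were 0.35 at 25 nM against DMSO, 1.31 at 50 nM against DMSO and 0.96 at 50 nM against 25 nM (SE 0.05 each). RSRP1 spans RHD, the RhD blood group gene on the other strand, which had 0.447 FPKM at 50 nM and 0.272 FPKM in DMSO. Other genes in its span with at least 1 FPKM in DMSO, RP3-465N24.5 and SDHDP6, share 0 exon bases with it. The pseudogene AL928711.1, on the same strand, shares 426 exon bases with RSRP1, and RHD shares 47. AL928711.1 averaged 0.359 FPKM at 50 nM and 0.157 FPKM in DMSO. RHD is not among the tested genes. At its 5′ end RSRP1 overlaps TMEM50A, a membrane protein gene on the other strand at 44.7 FPKM at 50 nM and 51.8 FPKM in DMSO, with which it shares 297 of 6804 exon bases.

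WSB1, at chr17:27294076-27315926 (ENSG00000109046, plus strand), was the most abundant of the 8 genes in FPKM in every group. It had 24.1, 25.3 and 25.3 FPKM in the DMSO libraries, 28.1, 26.6 and 23.9 FPKM at 25 nM and 45.8, 42.8 and 44.0 FPKM at 50 nM. The 25 nM libraries lay on both sides of the DMSO libraries, and the 50 nM libraries stood well above both. Its log2 fold changes were 0.07 at 25 nM against DMSO, 0.82 at 50 nM against DMSO and 0.76 between the doses (SE 0.06 each). No other annotated gene overlaps WSB1.

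PILRB, at chr7:100352176-100367733 (ENSG00000121716, plus strand), had 0.423, 0.596 and 0.606 FPKM in the DMSO libraries, 1.33, 1.10 and 1.31 FPKM at 25 nM and 2.74, 2.34 and 2.50 FPKM at 50 nM. The groups were separate, at 66 to 102 fragments per library in DMSO and 350 to 409 at 50 nM. Its mean FPKM at 25 nM was 2.30-fold and at 50 nM 4.67-fold that in DMSO. On the log2(FPKM + 0.1) scale the changes were 1.08 and 2.04 (SE 0.14 each), and the change at 50 nM was 1.19 with a pseudocount of 1. Its inhibitory partner gene PILRA averaged 0.558 FPKM at 50 nM and 0.269 FPKM in DMSO. PILRA overlaps PILRB by 204 bases of gene span on the same strand, with 88 exon bases in common. PVRIG2P and MIR6840, also on that strand, share 978 and 71 exon bases with PILRB and have no deposited values.

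MTG1, at chr10:133394094-133421307 (ENSG00000148824, plus strand), had 0.460, 0.602 and 0.502 FPKM in the DMSO libraries, 1.55, 1.41 and 1.74 FPKM at 25 nM and 3.31, 2.55 and 3.01 FPKM at 50 nM. The groups were separate, at 51 to 66 fragments per library in DMSO and 271 to 350 at 50 nM. It had the largest ratios of the 8 genes, a mean FPKM at 25 nM 3.01-fold and at 50 nM 5.67-fold that in DMSO. On the log2(FPKM + 0.1) scale the changes were 1.43 and 2.30 (SE 0.13 each), and the change at 50 nM was 1.37 with a pseudocount of 1. SPRN, on the other strand, shares 642 of its 4095 exon bases and averaged 1.33 FPKM at 50 nM and 1.10 FPKM in DMSO.

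**Figure D3:**
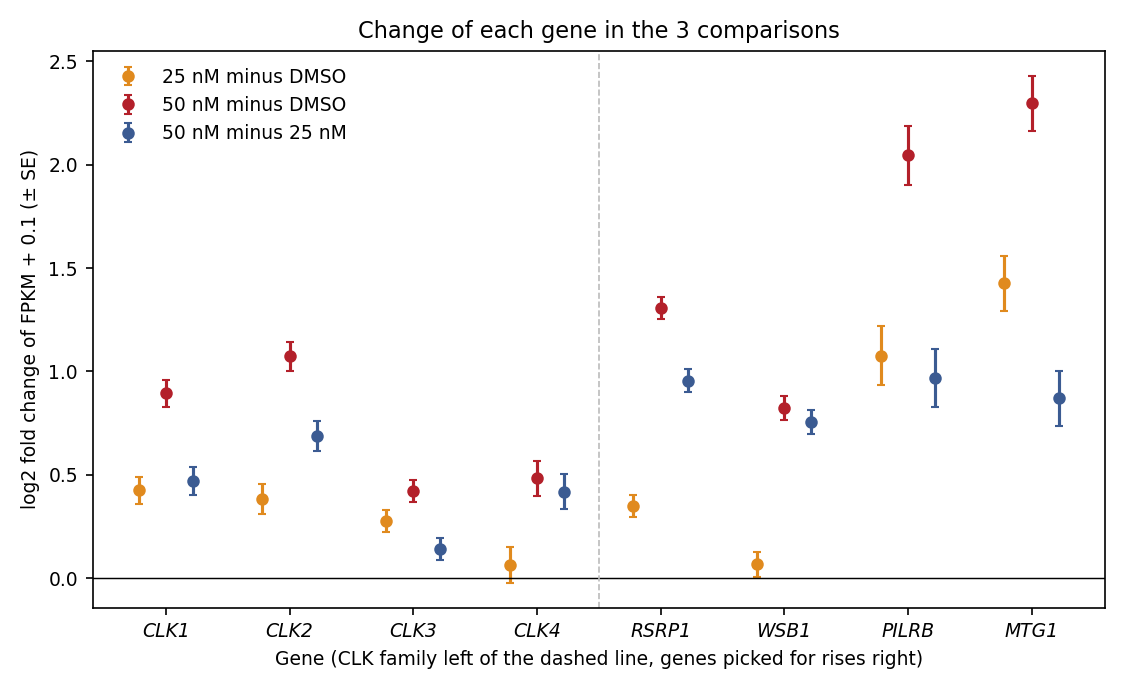
Log2 fold change of FPKM + 0.1 with its SE from the limma fit for each gene, in the 3 comparisons. Values left of the dashed line run from 0.06 for CLK4 at 25 nM to 1.07 for CLK2 at 50 nM, and those right of it reach 2.30 for MTG1, a gene picked for that rise.

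How far the label of retained introns holds in the annotation differed among the 8 genes. In CLK1, 2425 of 5170 exon bases (46.9%) belong to retained-intron transcripts and to no other transcript of the gene. The share was 60.0% in MTG1, 38.3% in CLK4, 36.0% in PILRB, 17.8% in CLK3 and 15.7% in WSB1. It was 0% in CLK2, which has 0 annotated retained-intron transcripts, and 0% in RSRP1, whose 4 such transcripts lie within exons of its other transcripts. Within the CLK family, the log2 fold change at 50 nM against DMSO was 1.07 for CLK2, 0.89 for CLK1, 0.48 for CLK4 and 0.42 for CLK3. The median over 10483 tested coding genes with the same length in both annotations was 3.70%.

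The exons that PILRB and MTG1 do not share with another gene are mostly retained-intron sequence. Of the exon bases of PILRB, 2908 (50.45%) also lie in exons of other genes, all on the same strand. Of these bases, 2837 lie in the readthrough gene STAG3L5P-PVRIG2P-PILRB, which averaged 0.0793 FPKM at 50 nM and 0.0159 FPKM in DMSO. Of the exon bases of MTG1, 1223 also lie in exons of AL360181.3, a gene that runs through it on the same strand and that averaged 0.0718 FPKM at 50 nM and was listed at 0 in DMSO. Retained-intron transcripts alone held 2073 of the 2856 unshared bases of PILRB (72.6%) and 1821 of the 2230 unshared bases of MTG1 (81.7%). Of coding genes with over 50% to 90% of their exon bases in exons of other same-strand genes, as in PILRB, 18.2% had a mean of 0.5 FPKM or more. The share was 66.55% with over 0% to 50%, as in MTG1, 0.842% with over 90% and 59.1% with none. PILRB, at 50.45%, lies just over the 50% edge between the classes with 18.2% and 66.55%. Nothing about the level of PILRB is read from its class. How much of the PILRB and MTG1 values comes from retained-intron sequence was not tested, since the files hold no value below the level of a gene.

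Introns 7 and 8 of the main coding transcript of MTG1, which annotated transcripts retain and which lie outside the exons of AL360181.3 and SPRN, are shown by their splice sites. The windows are chr10:133401581-133401610, chr10:133402129-133402158, chr10:133402236-133402265 and chr10:133402672-133402701 on the plus strand, with capitals as above.
MTG1 intron 7, 5′ site: caaaattcagGTggagtcctcaggggccag
MTG1 intron 7, 3′ site: tgccctctgtgcccacacAGgtctctgagc
MTG1 intron 8, 5′ site: gccctgtgtgGTgagccggggctggggctg
MTG1 intron 8, 3′ site: ctcggctgctgcttccacAGgaacggtgct
Intron 7 is 558 bases and intron 8 is 446 bases long.

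**Figure D4:**
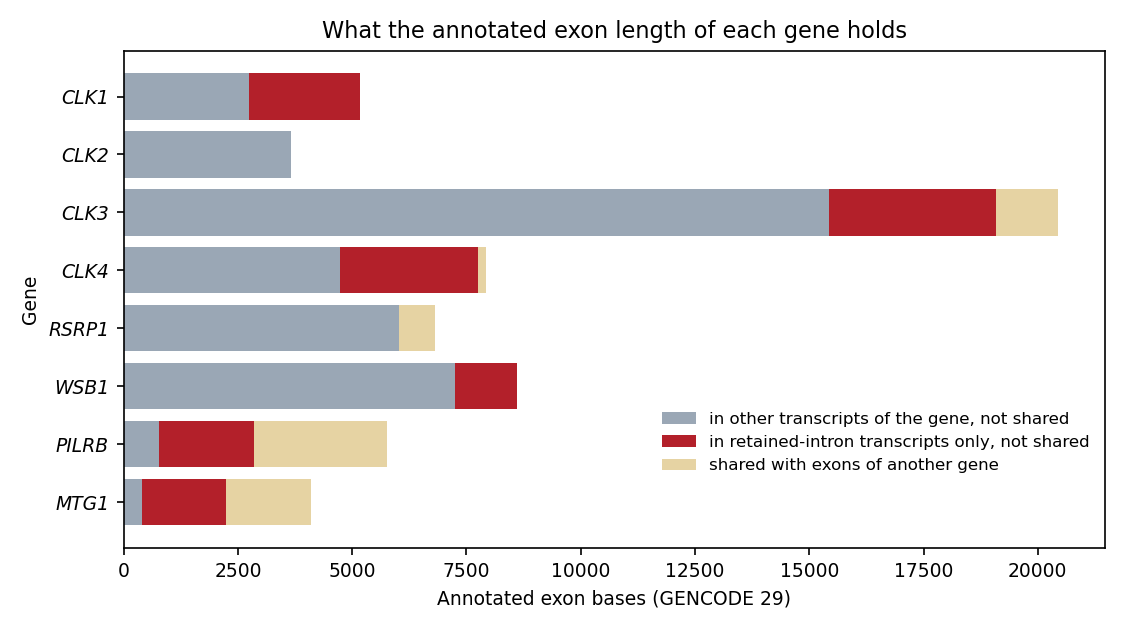
Annotated exon bases of each gene in GENCODE 29, split into bases of its other transcripts, bases of retained-intron transcripts alone, and bases shared with exons of another gene on either strand. In MTG1 and PILRB the unshared part is mostly retained-intron sequence, and CLK2 and RSRP1 hold none.

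Coding genes with over 25% of their length in retained-intron transcripts alone stood higher in piericidin A cells, as a class, than those with none. At 50 nM against DMSO, 29.2% of all tested genes were called higher and 31.5% lower. Of all 11722 tested coding genes, 3010 were called higher and 4681 lower. The 394 coding genes with over 50% of their length in retained-intron transcripts alone, a class that includes MTG1, had a median log2 fold change of 0.24. Of these, 55.3% were called higher and 13.45% lower. Among the 4545 with none, a class that includes CLK2 and RSRP1, the median was -0.16, with 20.1% called higher and 44.8% lower. The 2076 genes with over 0% to 10% lay slightly lower still, at a median of -0.18, with 18.5% called higher and 48.9% lower. The same medians at 25 nM against DMSO were 0.23 and -0.06. Between the doses they were -0.01 and -0.09, and 0.09 and 0.00 with fragment-total scaling. The Spearman correlation of this share with the log2 fold change was 0.235 at 50 nM and 0.2 at 25 nM over 10483 genes, which share libraries and are not independent, and with gene length it was 0.257. The difference was present among short, middle and long genes, with a median at 50 nM against DMSO of 0.25, 0.15 and 0.05 for genes with over 25% and of -0.01, -0.24 and -0.31 for genes with none, in that order. Whether RNA with introns as a whole has a part in the rises of the 8 genes was not tested.

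**Figure D5:**
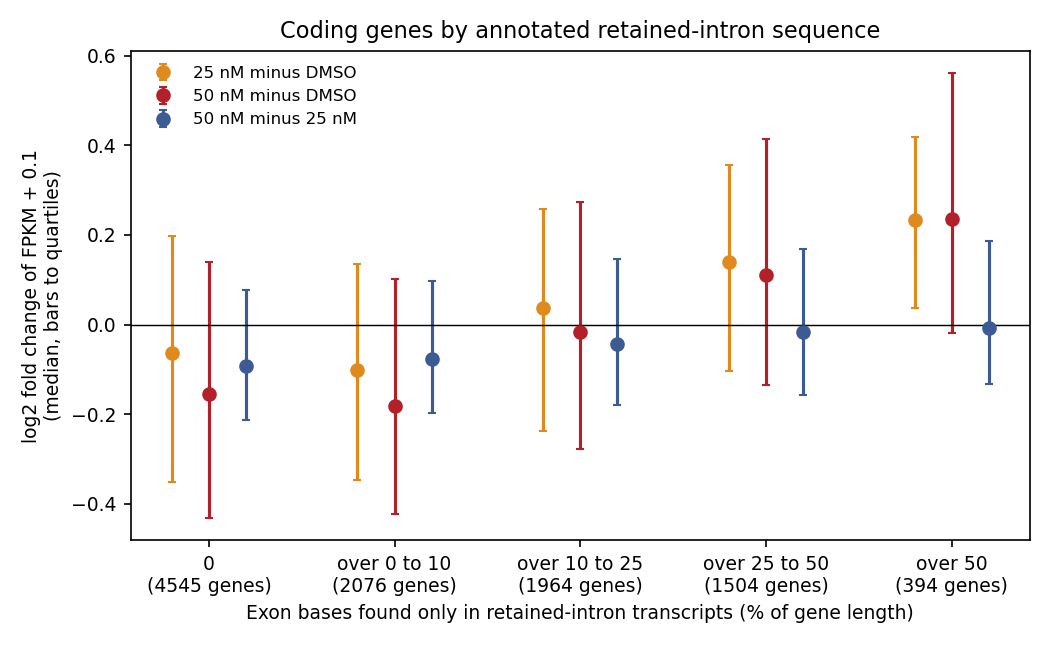
Median log2 fold change with bars to the quartiles for coding genes binned by the share of their length that lies in retained-intron transcripts alone. In the comparisons with DMSO the median of the highest bin, 0.23 at 25 nM and 0.24 at 50 nM, stands above that of genes with none, -0.06 and -0.16.

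Genes whose human transcripts often keep an intron, a list of 25 that also holds the SR genes SRSF5 and TRA2A, were mostly higher at 50 nM. This list, like those that follow, was written with earlier results of these data known. Against DMSO, 21 were called higher and 1 lower, beside 29.2% and 31.5% of all tested genes, with a median log2 fold change of 0.77. At 25 nM against DMSO, 13 were called higher and 4 lower (median 0.27), beside 26.3% and 25.8% of all tested genes. Between 50 nM and 25 nM, 20 were called higher at 50 nM and 0 lower (median 0.42), beside 14.7% and 18.8%. The RNA helicase gene DDX39B had 16.0 FPKM at 50 nM and 5.46 FPKM in DMSO (log2 fold change 1.54, SE 0.07, limma adjusted p = 7.45e-07). The cyclin gene CCNL2, whose protein sits in nuclear speckles, had 28.7 FPKM at 50 nM and 11.9 FPKM in DMSO (1.27, SE 0.06, limma adjusted p = 8.82e-07). HNRNPH1, a splicing regulator, had 60.9 FPKM at 50 nM and 34.9 FPKM in DMSO (0.80, SE 0.04, limma adjusted p = 8.82e-07). The gene that was lower was MAT2A, for the enzyme that makes S-adenosylmethionine, at 11.5 FPKM at 50 nM and 28.8 FPKM in DMSO (-1.31, SE 0.05, limma adjusted p = 4.64e-07). MAT2A was nevertheless higher at 50 nM than at 25 nM, by 0.65 (limma adjusted p = 1.9e-04).

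Related kinases of other families were mostly lower in piericidin A cells. Of 11 tested kinases of the SRPK, DYRK, HIPK and PRP4 families, 9 were called lower and 0 higher at 50 nM against DMSO, beside 31.5% and 29.2% of all tested genes, with a median log2 fold change of -0.43, and 1 was called higher with either other scaling. At 25 nM against DMSO 9 were called lower and 1 higher, beside 25.8% and 26.3% of all tested genes, with a median of -0.41. The 1 called higher was DYRK4 (0.24, limma adjusted p = 0.0361). Between the doses 2 were called higher and 1 lower (median 0.02), beside 14.7% and 18.8% of all tested genes. These counts were 3 and 0 with fragment-total scaling and 3 and 1 with upper-quartile scaling. Coding genes alone leaned lower than all tested genes. Of 11722 tested, 4681 were called lower and 3010 higher at 50 nM against DMSO, and 3700 and 3278 at 25 nM. SRPK2, a cytosolic SR protein kinase, had 18.4 FPKM at 50 nM and 24.9 FPKM in DMSO (-0.43, SE 0.04, limma adjusted p = 2.84e-05). DYRK3, which dissolves nuclear speckles and stress granules, had 3.00 FPKM at 50 nM and 5.37 FPKM in DMSO (-0.82, SE 0.07, limma adjusted p = 1.17e-05). DYRK1A fell by 0.37 and HIPK3 fell by 0.65 on the log2 scale (limma adjusted p = 5.52e-04 and 7.39e-04).

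SR proteins and related factors, the substrates of CLK kinases, were called in both directions at 25 nM, as genes were over all tested. Of 17 tested, 5 were called higher and 6 lower at 25 nM against DMSO, beside 26.3% and 25.8% of all tested genes, with a median of -0.02 that was 0.01 under upper-quartile scaling. In the 50 nM libraries against DMSO 9 were higher and 2 lower (median 0.15), beside 29.2% and 31.5%, and at 50 nM against 25 nM 10 were higher and 1 lower (median 0.18), beside 14.7% and 18.8%. SRSF2 had 38.2 FPKM at 50 nM and 15.8 FPKM in DMSO (1.27, SE 0.08, limma adjusted p = 3.28e-06), and SRSF11 had 31.1 and 17.2 FPKM (0.85, SE 0.05, limma adjusted p = 1.85e-06). TRA2A, SRSF3 and SRSF6 did not follow a single course. TRA2A fell by 0.37 at 25 nM against DMSO (limma adjusted p = 1.57e-04) and rose by 0.27 at 50 nM (limma adjusted p = 5.63e-04). SRSF3 rose by 0.46 at 25 nM (limma adjusted p = 3.29e-05) and by 0.28 at 50 nM (limma adjusted p = 2.78e-04). SRSF6 fell by 0.43 at 25 nM (limma adjusted p = 1.17e-04) and was at -0.05 at 50 nM (limma adjusted p = 0.401). At 50 nM against 25 nM, SRSF3 was at -0.18 and SRSF6 at 0.38 (limma adjusted p = 0.00864 and 7.06e-04).

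Among factors that remove transcripts with retained introns or skipped exons, some were higher and some lower, beside 29.2% higher and 31.5% lower over all tested genes at 50 nM against DMSO, 26.3% and 25.8% at 25 nM, and 14.7% and 18.8% between the doses. Of 15 factors of nonsense-mediated decay, 8 were called higher and 3 lower at 50 nM against DMSO (median 0.22), 7 and 4 at 25 nM against DMSO (median 0.13), and 4 and 3 between the doses (median 0.03). UPF3B rose by 1.03, SMG9 by 0.60 and UPF3A by 0.57 on the log2 scale at 50 nM against DMSO (limma adjusted p = 7.18e-06, 2.17e-05 and 4.39e-05), and SMG8 fell by 1.41 (limma adjusted p = 1.79e-06). Of 20 tested subunits and helpers of the nuclear exosome, 8 were called higher and 6 lower at 50 nM against DMSO (median 0.05), 7 and 5 at 25 nM (median 0.07), and 0 and 3 between the doses (median -0.02, against 0.08 with 4 higher and 0 lower by fragment-total scaling and 0.02 with 0 and 0 by upper-quartile scaling). EXOSC8 rose by 0.82, while the nuclease DIS3 fell by 0.58, ZCCHC7 by 0.49 and the helicase SKIV2L2 by 0.47 at 50 nM against DMSO (limma adjusted p = 1.09e-05, 1.35e-05, 2.91e-05 and 1.81e-04).

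Partners and relatives of WSB1, MTG1 and PILRB held genes that were higher and genes that were lower. Of 9 tested genes for the WSB1 paralog, ligase partners and substrates, 3 were called higher and 4 lower at 50 nM against DMSO (median 0.16), beside 29.2% and 31.5% of all tested genes, and 5 and 4 with either other scaling. They numbered 4 and 5 at 25 nM (median -0.30), beside 26.3% and 25.8%. Between the doses they numbered 1 and 2 (median -0.14), beside 14.7% and 18.8%, and 2 and 0 with fragment-total scaling. The paralog WSB2 fell by 0.46 and the ligase scaffolds CUL5 and CUL2 fell by 0.70 and 0.56 at 50 nM against DMSO (limma adjusted p = 3.4e-05, 1.47e-04 and 5.25e-05). VHL, a reported WSB1 substrate, fell by 0.39 at 25 nM against DMSO (limma adjusted p = 1.45e-04) and rose by 0.22 at 50 nM against DMSO (limma adjusted p = 0.00217). Of 13 tested GTPases and other factors of the mitochondrial ribosome beside MTG1, 3 were called higher and 6 lower at 50 nM against DMSO (median -0.18), 3 and 3 at 25 nM (median -0.08), and 2 and 2 between the doses (median -0.12), beside the same shares of all tested genes. NOA1 fell by 0.50, GTPBP10 by 0.45 and DDX28 by 0.68, and ERAL1 rose by 0.37 at 50 nM against DMSO (limma adjusted p = 7.68e-05, 2.32e-04, 5.09e-04 and 0.00333). Among PILR receptor and partner genes, NPDC1, a PILR ligand gene, rose by 0.71 and the phosphatase gene PTPN6 by 0.27 at 50 nM against DMSO (limma adjusted p = 6.74e-05 and 0.00478). PTPN11 was called lower, at -0.24, and CD99 was at -0.11 and not called (limma adjusted p = 0.0434 and 0.136). The call of PTPN11 did not hold with fragment-total or upper-quartile scaling. PILRA had at most 0.295 FPKM in a DMSO library, so it passed the filter on low values only through piericidin A libraries, and no count is given for this list.

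Over the 9 libraries the 8 genes were alike to different degrees. The Pearson correlation of log2(FPKM + 0.1) was 0.988 between PILRB and MTG1 and 0.991 between PILRB and CLK1, which stood higher at both steps. It was 0.97 between RSRP1 and WSB1 and 0.948 between WSB1 and CLK4, which overlapped DMSO at 25 nM in WSB1 and CLK4. The lowest values were 0.757 between CLK3 and CLK4 and 0.773 between CLK3 and WSB1. These correlations share libraries and follow the group means, so they are a description. Among coding genes with a mean of at least 5 FPKM, the nearest to CLK1 were TNPO2 (0.993), DDX55 (0.992) and IGFN1 (0.99), and the nearest to CLK2 were HSF4 (0.994), KIF18B (0.991) and POLR3E (0.991). The nearest to CLK3 were PARP2 (0.996), CLASRP (0.995) and PUS1 (0.994), and to CLK4 DDX46 (0.974), C1orf52 (0.969) and KIAA0907 (0.966). RSRP1 was nearest to RBM5 (0.992), GTPBP2 (0.99) and DDB2 (0.987), and WSB1 to RBM39 (0.987), DNMT3B (0.986) and CEP152 (0.985). PILRB was nearest to TNPO2 (0.995), DDX55 (0.992) and SMG9 (0.992), and MTG1 to METTL17 (0.998), AGAP6 (0.998) and AHSA2 (0.996).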

How the data were processed

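The authors deposited FPKM in a table named for read counts, 30673 genes, and a table of log2 FPKM with no pseudocount, 18859 genes above 0 in all 9 libraries, per the file headers and values. They used hg38, per the submitters' processing notes. Sources used here do not give the aligner, counting program, annotation or strandedness. In each library, multiplying FPKM by length gave multiples of 1 step (tolerance 0.01), and so whole fragments, for 100.0% of values. The 15541 genes reaching 0.5 FPKM in 3 or more libraries were fitted in limma 3.58.1 (R 4.3.3) on log2(FPKM + 0.1), with trend and robust variances, all 9 libraries and group as the only covariate. Adjustment was Benjamini-Hochberg over these genes. The fit was also run on simulated data in which few genes changed and all had the same spread. These data differ in that, so nothing is read from the simulation. The pseudocount of 0.1 understates changes of low genes. Annotation and transcript sequences came from GENCODE 29. The 8 genes and all lists were chosen with earlier results of these data known. Named genes were the 8, their overlapping genes, up to 4 per list with the smallest p plus 1 of the other direction, and the 3 nearest in pattern. Alternatives were pseudocounts of 1 and 0.01, filters, scalings, voom on fragments, fewer samples, a replicate block and leaving out each library.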

Additional observations from a re-analysis of the deposited data

How the results depend on the processing

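Of the 12 CLK gene tests (4 genes, 3 comparisons), 2 changed direction or side of the threshold under another setting. CLK3 at 50 nM against 25 nM, 0.14 as reported, passed with scaling by fragment totals (0.24), upper-quartile scaling (0.18), limma voom on fragments (0.15) and limma without trend and robust variances (0.14), and ranged from 0.12 to 0.17 with 1 library left out, and the cause was not tested. CLK4 at 25 nM against DMSO ranged from -0.0015 to 0.10 with 1 library left out, never past the threshold. Genes called at 50 nM against 25 nM numbered 3441 to 5829 with 1 library left out, against 5205. Among CLK shares of the family level, the difference of CLK1 at 50 nM against DMSO was 2.90 percentage points and at 50 nM against 25 nM 0.90 when taken of fragments, against -0.55 and -2.05 of FPKM, and that of CLK3 at 50 nM against DMSO was -7.09, against -2.85. With 1 library left out, the difference of CLK1 at 50 nM against DMSO ranged from -0.85 to 0.013, of CLK2 at 25 nM against DMSO from -1.05 to 1.27 and of CLK4 at 50 nM against 25 nM from -0.57 to 0.054. MTG1 and PILRB could not be given with a minimum of 1 FPKM in all 9 libraries. Same-numbered replicates had correlations of -0.047 to 0.079 between groups and 3 of 9 libraries correlated best with their own number. No shared effect of the replicate number was seen, though these values cannot tell if same-numbered samples were handled together. With the replicate block, 7640, 9107 and 4587 genes were called at 25 nM against DMSO, 50 nM against DMSO and 50 nM against 25 nM, against 8086, 9441 and 5205 without it, and no CLK call changed. PILRB and MTG1 had 51 to 102 fragments per library in DMSO, and a pseudocount of 1 moved their changes at 50 nM against DMSO to 1.19 and 1.37, against 2.04 and 2.30.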

Other observations

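Heat shock factor 1 binds repeats of a short element, spelled GAANNTTC here and read on both strands. RefSeq windows on GRCh38.p14, from 250 bases before to 50 after a start, were available for 7 of the 8 genes in 9 windows, PILRB being the gene without one. These letters were in 0 of the 9 windows, and in 6.77% of all 35116 windows of the same length. At that share, 0 of 9 is an ordinary outcome, and only this spelling was searched, so nothing is read from it.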
